A study of Mus musculus with 2 samples.

Results

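The miR-181 family comprises 6 miRNA genes of the mouse, which lie as 3 pairs of hairpins on chromosomes 1, 2 and 8. All 6 genes, Mir181a-1, Mir181b-1, Mir181a-2, Mir181b-2, Mir181c and Mir181d, were found by symbol and Ensembl identifier among the 1973 miRNA genes counted in this series. Short RNA had been sequenced from healthy embryonic forebrain of strain B6NCrl at day 11.5, with both sexes pooled, as 2 libraries of 1 group. Replicate 1 was made from 109 embryos and replicate 2 from 88 embryos, and no treated, mutant or control group exists. The labels call them biological replicates but list 1 donor entry for both, so the spread given here is that between these pools.

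A miRNA gene encodes a hairpin whose stem is cut into a 5p and a 3p mature arm, and the arm that is loaded into an Argonaute protein directs repression of messenger RNAs that match its seed. The miR-181 family is conserved across vertebrates. It is known from the brain, and from lymphocytes, where miR-181a tunes the sensitivity of T cell receptor signalling. At day 11.5 the forebrain is made up mainly of dividing progenitors, with few differentiated neurons.

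The mature arms were printed because they decide which reads can be assigned to a member. The RefSeq table on GRCm38.p6, the assembly that mm10 names, gave 12 arms for the 6 genes, of which 10 are distinct. They are written 5′ to 3′ with the seed, bases 2 to 8, in capitals.
miR-181a-5p (Mir181a-1 and Mir181a-2): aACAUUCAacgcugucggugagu
miR-181b-5p (Mir181b-1 and Mir181b-2): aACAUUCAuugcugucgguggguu
miR-181c-5p: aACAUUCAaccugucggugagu
miR-181d-5p: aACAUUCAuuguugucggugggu
miR-181a-1-3p: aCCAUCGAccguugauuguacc
miR-181a-2-3p: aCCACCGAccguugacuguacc
miR-181b-1-3p: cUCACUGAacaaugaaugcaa
miR-181b-2-3p: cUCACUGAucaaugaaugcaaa
miR-181c-3p: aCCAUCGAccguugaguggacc
miR-181d-3p: cCCACCGGgggaugaauguca

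All 5p arms shared the seed ACAUUCA, which 0 of the other genes among 1058 with a mature arm in the table carried. The 3p arms fell into 4 seeds: CCAUCGA in miR-181a-1-3p and miR-181c-3p, UCACUGA in both miR-181b 3p arms, CCACCGA in miR-181a-2-3p and CCACCGG in miR-181d-3p. Positions below are counted from 1 at the 5′ end of the arm. miR-181c-5p is miR-181a-5p with position 11 left out. miR-181b-5p and miR-181d-5p differ by C12U and by 1 base at the 3′ end. Over the first 23 bases miR-181a-5p and miR-181b-5p differ by A9U, C10U and A21G, outside the seed, and miR-181b-5p is 1 base longer. The 3p arms of Mir181a-1 and Mir181a-2 differ by U5C, inside the seed, and by U16C.

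Reads that align to several places are not in the gene counts, so a read wholly within an arm that 2 genes share cannot add to either of them. Over the whole library and whatever their source, these reads numbered 1165381 in replicate 1 and 1001079 in replicate 2. That is 32.9 and 26.7 times the counts of the whole miR-181 family, and it does not measure the reads that the family lost. The arms miR-181a-5p and miR-181b-5p are each encoded at 2 loci, on chromosomes 1 and 2. The counts of Mir181a-1, Mir181a-2, Mir181b-1 and Mir181b-2 therefore leave out reads that lie wholly within these arms, while both arms of Mir181c and Mir181d were found in no other hairpin of the table. The counts are given per hairpin and do not separate the arms. The share of the family's reads lost in this way was not tested.

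The hairpins of the copied genes show how far each pair of copies stays identical, with the mature arms in capitals.
Mir181a-1: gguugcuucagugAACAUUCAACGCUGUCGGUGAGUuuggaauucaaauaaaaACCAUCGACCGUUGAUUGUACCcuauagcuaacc
Mir181a-2: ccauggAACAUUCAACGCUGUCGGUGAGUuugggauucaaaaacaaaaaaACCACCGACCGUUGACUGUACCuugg
Mir181b-1: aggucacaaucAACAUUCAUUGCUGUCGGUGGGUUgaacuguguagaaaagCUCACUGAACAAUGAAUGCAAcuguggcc
Mir181b-2: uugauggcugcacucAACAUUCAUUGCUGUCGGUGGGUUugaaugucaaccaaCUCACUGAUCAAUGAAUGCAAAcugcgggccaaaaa

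Around the 5p arm, the hairpins of Mir181a-1 and Mir181a-2 are identical over 28 bases, from 1 base before the arm to 4 bases after it. The identical stretch of Mir181b-1 and Mir181b-2 is 26 bases long. It begins 2 bases before the arm and ends with the arm, so a read that runs 1 base past the 3′ end of miR-181b-5p differs between the copies. Of all windows of 22 bases, 89.4% in Mir181a-1, 87.3% in Mir181a-2, 91.5% in Mir181b-1, 92.6% in Mir181b-2 and 100% in Mir181d occurred in no other hairpin or arm of the table.

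Mir181a-1 (ENSMUSG00000065565, chr1:137966455-137966541) and Mir181b-1 (ENSMUSG00000065458, chr1:137966639-137966718) lie 97 bases apart on the plus strand, within an intron of the noncoding transcript Gm4258. All 80 bases of Mir181b-1, and the last 11 of the 87 of Mir181a-1, also overlap an exon of the lincRNA A430106G13Rik. Mir181a-2 (ENSMUSG00000065423, chr2:38852735-38852810) and Mir181b-2 (ENSMUSG00000065578, chr2:38853830-38853918) lie 1019 bases apart on the plus strand. They stand opposite an intron of Nr6a1, an orphan nuclear receptor gene transcribed from the minus strand. Mir181c (ENSMUSG00000065483, chr8:84178873-84178961) and Mir181d (ENSMUSG00000076338, chr8:84178716-84178787) lie 85 bases apart on the minus strand in an intron of Nanos3, which encodes an RNA-binding protein of germ cells.

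The levels of the 6 genes ranged in the mean from 51.9 to 11394 CPM (counts scaled to a library total of 1000000), and the pair on chromosome 8 stood above the others in both libraries. The counts used are those on the strand of the gene, and the total is the 1281201 and 1297647 such counts of all miRNA genes in replicates 1 and 2. Mir181d reached 10859 CPM in replicate 1 and 11930 CPM in the other library, from 13912 and 15481 counts. Mir181c had 9561 and 9727 CPM, from 12250 and 12622 counts. These genes ranked 20 and 30 of 1973 by mean CPM.

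Mir181b-2 reached 3625 CPM in replicate 1 and 3936 CPM in the other library, and Mir181a-1 had 3076 and 2794 CPM, at ranks 58 and 66. Mir181a-2 had 511 and 429 CPM, from 655 and 557 counts. Mir181b-1 was the lowest member, with 46.8 and 57.0 CPM from 60 and 74 counts, at rank 257. The order of the 6 genes was therefore the same in both libraries, and no 2 neighbours in it overlapped.

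As means over the libraries, Mir181d had 11394 ± 758 CPM and Mir181c 9644 ± 117 CPM (SD, n = 2, as for every ± below). Mir181b-2 had 3781 ± 220.4, Mir181a-1 2935 ± 199, Mir181a-2 470.2 ± 58.0 and Mir181b-1 51.9 ± 7.21 CPM. Between neighbours in this order, the smallest gap was the 1.18-fold of Mir181d over Mir181c, a log2 difference of 0.24 ± 0.08. That of Mir181b-2 over Mir181a-1 was 0.37 ± 0.18, and the largest, Mir181a-2 over Mir181b-1, was 3.18 ± 0.38. A miRNA read spans a mature arm whatever the length of the hairpin, so CPM were not divided by length. Per hairpin base the order was the same, from 158 ± 10.5 CPM per base for Mir181d to 0.649 ± 0.0901 for Mir181b-1.

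**Figure D1:**
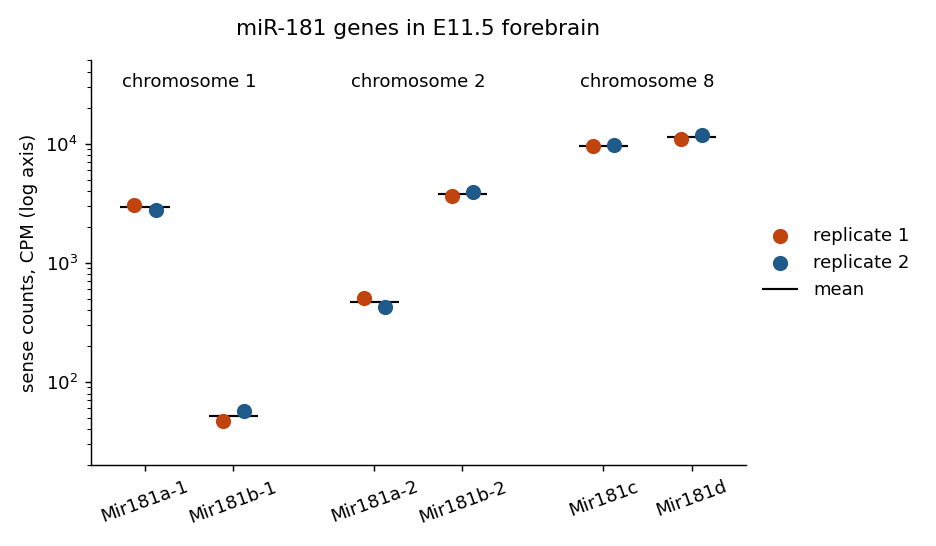
Sense counts as CPM (log axis) of the 6 miR-181 genes, grouped by chromosome, with a point for each library and a line at the mean. The members of chromosome 8 lie between 9561 and 11930 CPM, while on chromosomes 1 and 2 the genes of a pair lie far apart, with Mir181b-1 lowest at 46.8 and 57.0 CPM.

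Together the family held 2.77% of the miRNA counts in replicate 1, with a 95% Wilson interval of 2.74 to 2.80%, and 2.89% in replicate 2, with one of 2.86 to 2.92%. Intervals cover counting error only, since reads copied by PCR are not independent molecules. Mir181c and Mir181d took 73.8% and 75.0% of the family's counts, Mir181a-2 and Mir181b-2 14.9% and 15.1%, and Mir181a-1 and Mir181b-1 11.3% and 9.88%. The locus on chromosome 8 thus held 74.4% ± 0.870 of what was counted. This share includes the 5p arms of its genes, while the other loci lack reads that lie wholly within their shared 5p arms. In bulk tissue, fewer cells that hold a miRNA and less of it per cell cannot be told apart.

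Within the pairs, a different hairpin led at each locus. On chromosome 1 the a gene exceeded the b gene, on chromosome 2 the b gene exceeded the a gene, and on chromosome 8 Mir181c and Mir181d were close. The counts on chromosomes 1 and 2 leave out reads wholly within the shared 5p arms. Those on chromosome 8 include both 5p arms, so the ratios of the 3 loci are unlike measures and not ratios of hairpin output. The log2 ratio of counts of Mir181a-1 over Mir181b-1 was 6.03 in replicate 1 (95% exact Clopper-Pearson interval 5.67 to 6.43) and 5.61 in replicate 2 (5.28 to 5.97), or 5.82 ± 0.30 in the mean, a 56.3-fold difference. The ratio of Mir181a-2 over Mir181b-2 was -2.82 (-2.95 to -2.71) and -3.20 (-3.33 to -3.07), or -3.01 ± 0.26, so that Mir181b-2 was 8.06-fold above its neighbour. Mir181c over Mir181d stood at -0.18 (-0.22 to -0.15) and -0.29 (-0.33 to -0.26), or -0.24 ± 0.08. With counts divided by hairpin length the last ratio was -0.54. The intervals of the 3 loci were apart in both libraries. With 2 libraries, no test over samples was made.

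Next-neighbour miRNA genes on the same strand within 10 kb gave the background for these ratios. Among 102 such pairs with 10 counts or more in each gene, the median absolute log2 ratio was 2.41, with quartiles at 1.44 and 5.16. The pair on chromosome 1 ranked 19 from the largest ratio and that on chromosome 2 ranked 43. Mir181c and Mir181d ranked 96, and 5.88% of the pairs were closer to each other in counts. The ranks set unlike counts side by side, since the pairs on chromosomes 1 and 2 lack reads wholly within their shared 5p arms. In each pair the first gene named is the upstream one, and the upstream gene was the higher one in 49 of the 102 pairs.

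**Figure D2:**
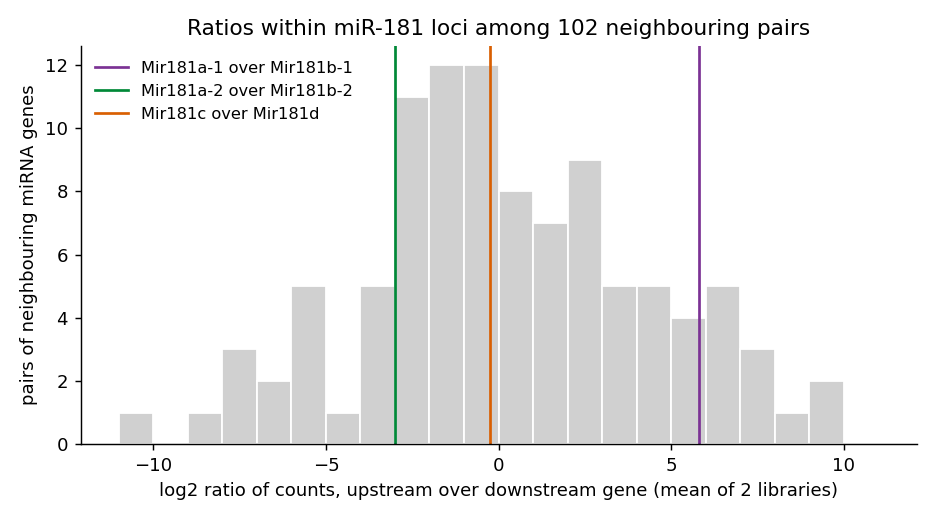
Histogram of the log2 ratio of counts, upstream over downstream gene, for 102 pairs of neighbouring miRNA genes (horizontal axis, mean of 2 libraries; vertical axis, number of pairs), with lines at the miR-181 pairs. The lines stand at 5.82 for chromosome 1, -3.01 for chromosome 2 and -0.24 for chromosome 8.

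The copies that encode the same 5p arm were also unequal, and in opposite order. Mir181a-1, on chromosome 1, exceeded Mir181a-2, with 3941 and 655 counts in replicate 1 and 3626 and 557 in replicate 2. This log2 ratio was 2.59 (2.47 to 2.71) and 2.70 (2.57 to 2.83), or 2.64 ± 0.08, a 6.25-fold difference. Mir181b-1, on the same chromosome, lay below Mir181b-2, with 60 and 4644 counts in replicate 1 and 74 and 5108 in replicate 2. The ratio was -6.26 (-6.67 to -5.91) and -6.10 (-6.46 to -5.78), or -6.18 ± 0.12, a 72.6-fold difference. These values compare reads assigned to 1 copy, and not the output of the shared 5p arm.

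Across the table, 23 pairs of genes that share a mature arm in full had 10 counts or more in each gene, and their median absolute log2 ratio was 2.09, with quartiles at 1.17 and 3.02. Mir181b-1 and Mir181b-2 were furthest apart of the 23 in the mean, while Mir181a-1 and Mir181a-2 ranked 9. Mir199a-1 over Mir199b followed at -6.04, and Mir9-2 over Mir9-3 at -5.88. Replicate 2 alone put both of these pairs further apart, at -6.36 and -6.23, than the -6.10 of Mir181b-1 over Mir181b-2. Some of the 23 pairs share a gene, and this comparison was chosen after the values of the members had been seen.

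**Figure D3:**
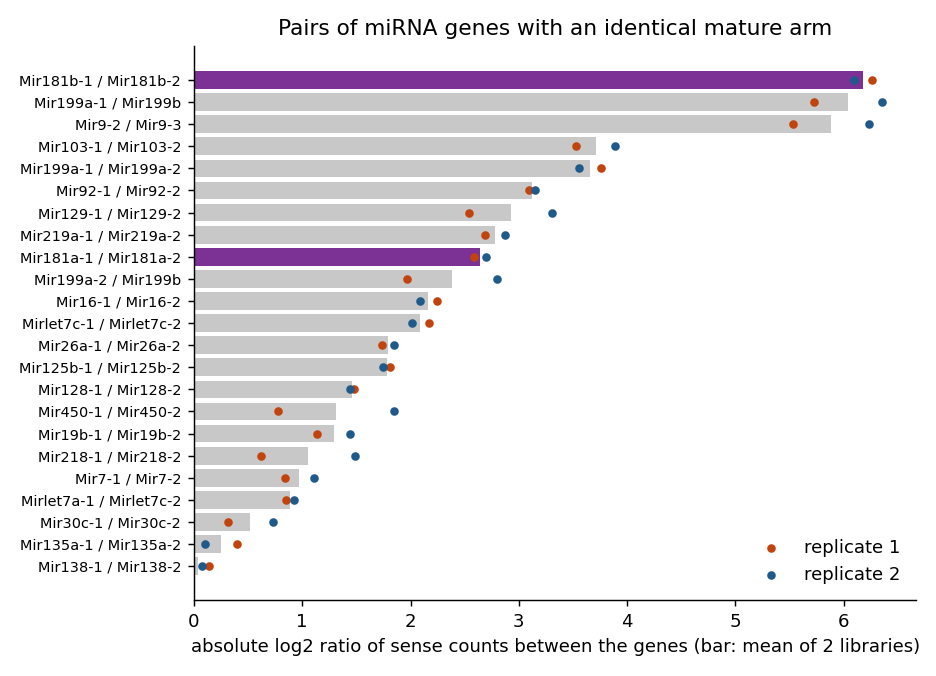
Absolute log2 ratio of sense counts (horizontal axis) between the genes of the 23 pairs that share a mature arm, with bars at the mean of 2 libraries, points for each library and the miR-181 pairs in purple. Mir181b-1 and Mir181b-2 have the longest bar, 6.18, and Mir181a-1 and Mir181a-2 lie at 2.64.

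Between the replicate pools, the members differed by little. An exact binomial test set the counts of each gene in replicates 1 and 2 against the library totals for the 398 genes with 10 counts or more, and its p-values were adjusted by Benjamini-Hochberg over all of them. It called 4 of the 6 members at an adjusted p under 0.05, where it called 28.4% of all tested genes and 53.9% of the 154 with 1000 counts or more. Mir181a-1 was higher in replicate 1 by a log2 ratio of 0.14 (95% exact interval 0.07 to 0.20, adjusted p = 0.000170), and Mir181a-2 by 0.25 (0.09 to 0.42, adjusted p = 0.0109). Mir181b-2 was lower in replicate 1 at -0.12 (-0.18 to -0.06, adjusted p = 0.000262), and Mir181d at -0.14 (-0.17 to -0.10, adjusted p = 1.08e-14). Mir181b-1 stood at -0.28 (-0.80 to 0.23, adjusted p = 0.486) and Mir181c at -0.02 (-0.06 to 0.01, adjusted p = 0.356). Higher in replicate 1 were thus 2 members, against 20.6% of all tested genes, and lower 2 members, against 7.79%. These shares are over genes of all depths. The called members all have 1000 counts or more, and for such genes the shares by direction were not computed.

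This test covers counting error alone and compares these libraries, so small shifts of deeply counted genes pass it. Of the members, 0 were both called and 2-fold apart, against 2.76% of all tested genes. With scaling by TMM, which turned the split of all calls from 82 higher and 31 lower to 52 and 54, Mir181a-1 at 0.07 (adjusted p = 0.133) and Mir181a-2 at 0.18 (adjusted p = 0.0999) lost their calls. Mir181c gained one at -0.10 (adjusted p = 1.27e-06), while Mir181b-2 moved to -0.19 and Mir181d to -0.21. The edgeR exact test, with the spread between the libraries estimated as a biological coefficient of variation of 10.3%, called 0 of the 6 members, 0 at an unadjusted p under 0.05, and 8 of all 398 genes. This spread came from the same 2 libraries that were compared, so the difference tested also sets its own error, and the 0 calls say nothing about stability.

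**Figure D4:**
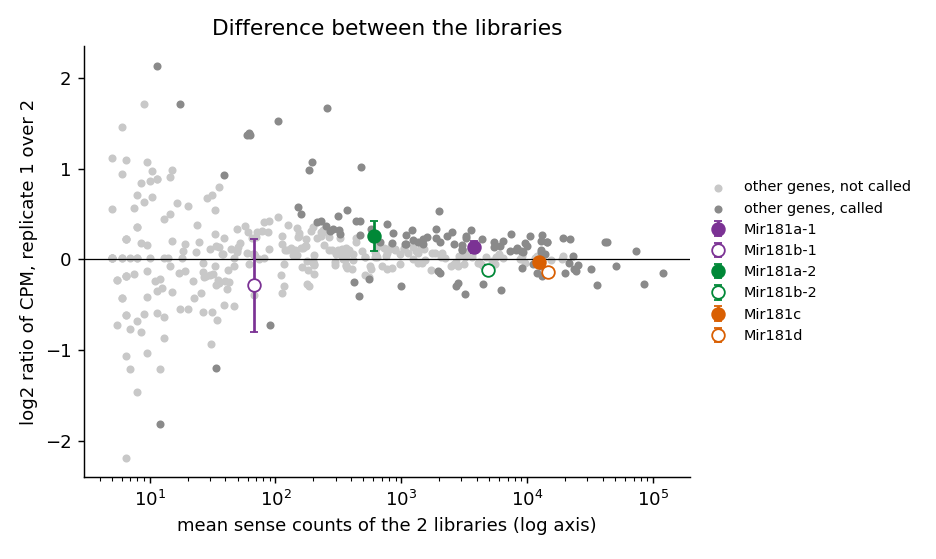
Log2 ratio of CPM, replicate 1 over replicate 2 (vertical axis), against the mean count (horizontal log axis) for 398 genes, with called genes in dark grey and the miR-181 genes coloured by locus with 95% intervals. The a genes lie above 0, at 0.14 and 0.25, and the b and d genes below it, between -0.28 and -0.12. Mir181c lies at -0.02, and the intervals of Mir181b-1 and Mir181c reach across 0.

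The ratio within a pair does not depend on library totals, and its change between the libraries was tested by Fisher's exact test on the counts of both genes, adjusted over all 102 neighbouring pairs. The test called 2 of the 3 miR-181 pairs, against 15.7% of all pairs and 40.6% of the 32 pairs with 1000 counts or more in both genes. Mir181a-2 over Mir181b-2 was higher in replicate 1 by 0.37 on the log2 scale (adjusted p = 0.000262), and Mir181c over Mir181d by 0.11 (adjusted p = 9.41e-05). Mir181a-1 over Mir181b-1 differed by 0.42 (adjusted p = 0.294), with 60 and 74 counts behind the lower gene. Both called pairs had the upstream gene relatively higher in replicate 1, a direction called in 7.84% of all pairs. That share is over pairs of all depths. Both called pairs are among those with 1000 counts or more in both genes, for which the share by direction was not computed. This test too covers counting error only.

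On the opposite strand the members had 0 counts in both libraries, although Mir181b-2 lies opposite an exon of Gm44144 and the pair on chromosome 2 opposite Nr6a1. The pair on chromosome 1 lies opposite the lincRNA Gm26936, outside its exons. Of the 398 genes with 10 sense counts or more, 32 had a count on the opposite strand. At this depth a count of 0 leaves room for 2.34 CPM (replicate 1) or 2.31 CPM (replicate 2) of opposite-strand reads per gene.

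The gene nearest in level to each member, by the Euclidean distance of log2(CPM + 1) over the 2 libraries, describes where the family stands. Mir181d lay nearest to Mir487b, an imprinted miRNA of the Dlk1-Dio3 cluster, with 12059 ± 47.5 CPM, and Mir181c to Mir652 with 9905 ± 379.98 CPM. Mir181b-2 lay nearest to Mir361 with 3644 ± 55.9 CPM, and Mir181a-1 to Mir107, a miRNA of the Pank host genes, with 2820.2 ± 77.0 CPM. Mir181a-2 lay nearest to Mir9-3 of the neural miR-9 family with 479 ± 62.4 CPM, and Mir181b-1 to Mir293 of the embryonic stem cell cluster with 52.3 ± 9.95 CPM. With 2 libraries of 1 group this is likeness of level only.

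Against the list of other neural miRNAs, Mir181d and Mir181c stood below 2 genes and above the other 26 with a row. These 2 were Mir92b, with 17079 ± 1908 CPM, and Mir149, with 14979 ± 1706 CPM. Mir135b followed with 7206 ± 293 CPM and Mir137 with 2536 ± 316 CPM. The list's 28 genes summed to 5.47% and 4.80% of the counts, had a median of 196 CPM, and 27 of them reached 2 CPM in both libraries, whereas the 6 miR-181 genes had a median of 3358 CPM and the 685 genes with any count one of 8.91 CPM. Of 26 tested neural genes, 9 were called higher in replicate 1 and 0 lower by the exact binomial test, with 10 at an unadjusted p under 0.05, or 5 and 1 with TMM and 0 in edgeR. Among all tested genes the shares were 20.6% higher and 7.79% lower. Mir9-2 and Mir9-3, among others of the list, also share a mature arm and lack reads that lie wholly within it. The neural markers of the labelled tissue were detected for 10 of 11 genes with a row, at 4.01% and 3.45% of the counts.

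Other families of duplicated clusters, such as miR-23/27/24, miR-29 and miR-30, summed to 8.54% and 8.46% of the counts over 23 genes, of which 21 reached 2 CPM in both libraries. Mir30e had 25025 ± 1327 CPM, Mir23b 10747 ± 331 CPM, Mir30a 10070 ± 334 CPM and Mir15a 9246 ± 184 CPM, and the list's median was 359.9 CPM. Of the list, 1 gene stood above Mir181d and 3 above Mir181c. Mir16-1 and Mir16-2, and Mir30c-1 and Mir30c-2, among others of the list, share a mature arm. They lack reads that lie wholly within it, while Mir181c and Mir181d share no arm. The list's median and these counts of genes above thus set unlike counts side by side. Of the list's 21 tested genes, 5 were called higher and 3 lower in replicate 1 by the exact binomial test. That was 3 and 3 with TMM, and 0 were called in edgeR. Among all tested genes the binomial shares were 20.6% higher and 7.79% lower.

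Other miRNAs of lymphoid and myeloid cells, where the miR-181 family is also known, were far below it. The list summed to 0.0789% and 0.0804% of the counts over 5 genes with a row, against the 2.77% and 2.89% of the family. Mir155 had 400.4 ± 34.2 CPM, Mir223 341 ± 31.6 CPM, Mir146 36.0 ± 9.00 CPM and Mir150 18.2 ± 0.713 CPM. Mir142a had no row in the tables. Marker miRNAs of erythroid cells summed to 0.0606% and 0.0371%, of striated muscle to 0.0253% and 0.0134%, with Mir1a-1, Mir133a-1 and Mir133a-2 at 0 counts, and of the Hox loci to 0.0210% and 0.00840%. The muscle genes at 0 are known to encode miRNAs that another locus encodes as well, so reads shared by the copies are not in their counts and 0 sets no limit on the miRNA. Mir1a-2 had no row. Mir122 of liver held 0.00211% and 0.000617%, and Mir126a of endothelium 3.46% and 3.03%. By the exact binomial test, several of these markers were called higher in replicate 1, as were 20.6% of all tested genes. They were 2 of 4 tested Hox genes, 1 of 3 erythroid, 2 of 4 muscle genes, Mir122 and Mir126a. Of the 4 tested leukocyte genes, 0 were called higher and 0 lower, but with TMM 1 of them was called lower in replicate 1. The edgeR exact test called 2 Hox genes, 1 erythroid and 1 muscle gene, and 0 for liver and endothelium, against 8 of all 398 genes. Mir10a of the Hox loci stood at 120.2 and 41.6 CPM in replicates 1 and 2. In the same order, Mir451a of erythroid cells stood at 493 and 244 CPM and Mir208b of heart muscle at 191 and 96.3 CPM. The other called muscle gene was Mir208a, at 39.8 and 20.8 CPM. Mir499, at 14.8 and 13.9 CPM, and Mir206, at 7.02 and 3.08 CPM, were not called. The other erythroid markers were not higher in replicate 1, with Mir144 at 88.2 and 91.7 CPM and Mir486 at 24.98 and 35.45 CPM. Neither was called by the exact binomial test, so the difference of Mir451a was not shared by its list. The part of any of these cells in the miR-181 levels, or in their differences between the libraries, was not tested.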

How the data were processed

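MicroRNA-seq of E11.5 forebrain was deposited as raw counts per miRNA gene, 1 table for each of 2 libraries. The notes that the authors deposited name mm10 as the assembly and GENCODE M4 as the annotation. Which aligner and which counting tool made the counts is not given in the sources used here. Column 3, the strand of the gene, was used. The rows of reads not assigned to a gene were kept out of totals, and the sense counts were 32.4% and 37.9% of the 3955893 and 3428269 reads of replicates 1 and 2. GENCODE M21 on GRCm38 named 1894 of 1973 identifiers and gave positions and overlapping genes.

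The members and lists were chosen with earlier results of these data known. Besides the members, the text names the nearest gene in level to each member and up to 4 leading genes of each list. Mir199a-1, Mir199b and Mir9-2 were named after their values were seen. The hairpin sequence of Mir181c was not used here, and its length is that of the annotation.

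Log2 ratios had 0.5 counts added. Tests were the exact binomial and Fisher's exact test (scipy 1.17.1), tested on simulated data beforehand, with Benjamini-Hochberg adjustment. The simulated counts held counting error and set changes only, with no other spread between libraries. They checked that the tests run as meant and say nothing about the calls between the pools. With 1 group, edgeR's quasi-likelihood test has no contrast, and the edgeR 4.0.16 exact test and DESeq2 1.42.0 size factors were alternatives, as were other count columns, denominators, filters, distances, pseudocounts and each replicate alone. Scripts ran in Python 3.11.15, pandas 2.3.3, numpy 2.4.6 and R 4.3.3.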

Additional observations from a re-analysis of the deposited data

How the results depend on the processing

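Of 126 alternative values, 0 reversed, which means a change of sign. Levels, shares and counts of calls cannot change sign, and other neighbour distances or count filters leave a log2 ratio as it was. The 0 is therefore no measure of stability. Each replicate alone lies within 1 SD of the mean of 2 by construction, and the unstranded column cannot change a ratio or share within the family, whose opposite-strand counts are 0, so these say nothing about stability. Dividing counts by hairpin length moved the ratio of Mir181c over Mir181d to -0.54, since the hairpin of Mir181c is 89 bases long and that of Mir181d 72. The family's share of all counts was 2.73% in the unstranded column and 4.80% without the 10 most abundant genes. The edgeR exact test called 8 genes between the libraries, against 113 by the exact binomial test, because it includes the spread between the libraries. Member levels were 0.349 to 0.354 times as high relative to all reads of the library, and 1.70 times as high without the 10 most abundant genes. With each replicate alone, levels were 0.902 to 1.098 times the mean, and the pair ratios ran from 5.61 to 6.03, from -3.20 to -2.82 and from -0.29 to -0.18. DESeq2 size factors ended the call of Mir181a-2 (0.20, adjusted p = 0.0560) and added that of Mir181c (-0.07, adjusted p = 0.000297). TMM shifted the log2 ratios of all genes by 0.07. Neighbour distances of 2 and 50 kb, a minimum of 50 counts and the unstranded column changed no call of the pairs. No paired analysis was possible because the series has 1 group. Mir181b-1, with 60 and 74 counts, is the member that depth limits most.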

Other observations

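Across the table, 916 miRNA genes were matched to RefSeq mature arms, and 87 of them had an arm that another gene also encodes in full, among them 4 of the 6 miR-181 genes. Of the 87 genes, 55.2% reached 2 CPM in both libraries, with a median of 8.91 CPM and a ninetieth percentile of 562 CPM. Of the 829 genes with no such arm, 39.6% reached it, with a median of 0.781 CPM and a ninetieth percentile of 1599 CPM. Mir181a-1 and Mir181b-2, at 2935 and 3781 CPM, stood above the ninetieth percentile of the first set, while Mir181a-2 at 470.2 CPM lay below it and Mir181b-1 at 51.9 CPM below the upper quartile of 127 CPM. Mir181c and Mir181d, at 9644 and 11394 CPM, stood above the ninetieth percentile of the second set. These are descriptions chosen after the data were seen, and genes within a family are not independent.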
